A study of Mus musculus with 20 samples.

Results

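B cells carry either a kappa or a lambda light chain beside their heavy chain, and the cells described here are germinal centre B cells and plasma cells sorted by which of these chains dominates their transcripts. A cell entered the comparison if the authors' annotation placed it in the dark zone, the light zone, the light-to-dark zone transition or the plasma cells, and if it held at least 10 counts of Iglc1, Iglc2, Iglc3 and Igkc together. It was called a lambda cell where the 3 lambda constant genes made up a share of at least 0.8 of that sum, and a kappa cell where they made up at most 0.2. Of 1367 cells in the series, 438 met these limits. They comprised 93 lambda and 209 kappa cells among 778 germinal centre B cells, and 62 lambda and 74 kappa cells among 480 plasma cells. The remaining 435 germinal centre B cells and 344 plasma cells with enough counts lay between the limits and had no class, and 41 germinal centre B cells held fewer than 10 counts.

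C57BL/6 mice had been immunized with NP-KLH, a nitrophenyl hapten coupled to the carrier protein keyhole limpet hemocyanin, in Sigma Adjuvant System, and lymph node cells were sorted on day 15. Tamoxifen had been given by gavage 4 days earlier, and all sorted cells were eYFP-positive; the allele that carries the reporter and the Cre that turns it on are not given in the sources used here. Libraries were made by FB5P-seq, which sequences the 5′ end of each transcript in index-sorted single cells on plates, so that B cell receptors can be assembled. There were 20 plates, 10 of the sampleID C57BL/6F and 10 of C57BL/6M, all with the same immunization and tamoxifen and with no untreated group. How many mice were used is not given in the sources used here. Animal, sex and sampleID therefore cannot be told apart, and each p-value reflects plate-to-plate spread, which may be technical.

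A developing B cell rearranges the kappa locus before the lambda locus as a rule, and most mouse B cells end up with kappa. The response of C57BL/6 mice to NP is a textbook exception, since many of its antibodies pair a lambda light chain with the heavy chain gene IGHV1-72. In the germinal centre the chains mutate in the dark zone, and cells are tested for binding in the light zone. Replacement of tryptophan by leucine at codon 33 of IGHV1-72 is the best known change that raises binding of NP.

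Plates held 10 to 78 cells. Plate 6 of C57BL/6F held 5979 counts and none of the classified cells, and the other 19 plates held between 3208858 and 11908095 counts. The 438 classified cells had a median of 50735 counts each (lowest 2048, highest 383899). All 1367 cell names were distinct. The highest count of any gene in a cell was 1024, a ceiling that light chain transcripts of plasma cells reached, so their counts are compressed. The CD3 and T cell receptor genes, the myeloid genes and the red cell genes checked were near 0 in all 4 groups. The 2 red cell genes had no count in the lambda cells of either kind. Between 2.15% and 4.05% of the cells of a group held a count of a myeloid gene. Other genes listed as T cell markers were higher in germinal centre pools. Lck had a mean of 369 CPM in lambda and 544 in kappa pools, and Cd2 410 and 258. The 3 stromal genes summed to between 35.0 and 79.3 CPM, with a count in 13.5% to 17.7% of cells, and Col1a1 and Cxcl13 were at 0 in all groups but the germinal centre lambda cells. The part of stromal RNA in the results was not tested. The 7 germinal centre genes summed to 5728 CPM (counts scaled to a common library size, outside immunoglobulin genes) in germinal centre lambda cells and 4964 in germinal centre kappa cells. In plasma cells they summed to 197 and 189, with Bcl6 and Pax5 at 0 in both classes. The 6 plasma cell genes summed to 17654 and 20413 CPM in plasma cells of the lambda and kappa class.

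The share that set the classes had a narrow peak near 1 and a broad lower range in both kinds of cell, and in the germinal centre also a peak near 0. Of 737 germinal centre B cells 67 lay below 0.05, 36 from 0.05 to 0.1 and 64 from 0.95 upward, and of 480 plasma cells 4, 19 and 47. In germinal centre B cells its median was 0.989 in lambda cells and 0.1 in kappa cells, and in plasma cells it was 0.988 and 0.139. Igkc, the single kappa constant gene, had a median of 1 count in germinal centre lambda cells and 163 in kappa cells, and of 13.5 and 834 in plasma cells. Iglc1, the constant gene of the most used mouse lambda chain, had medians of 106 and 0 counts in the germinal centre and of 977.5 and 30 in plasma cells. Cells were selected on these values, which are given as a description with no test. Just inside the kappa limit, at shares from 0.15 to 0.2, lay 55 germinal centre and 32 plasma cells, and just outside it, up to 0.25, lay 56 and 36. Just outside the lambda limit, from 0.75 to 0.8, lay 9 germinal centre and 7 plasma cells, and just inside it, up to 0.85, lay 10 and 5. The lambda limit therefore cut where cells were few and the kappa limit cut through the bulk of the cells.

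**Figure D1:**
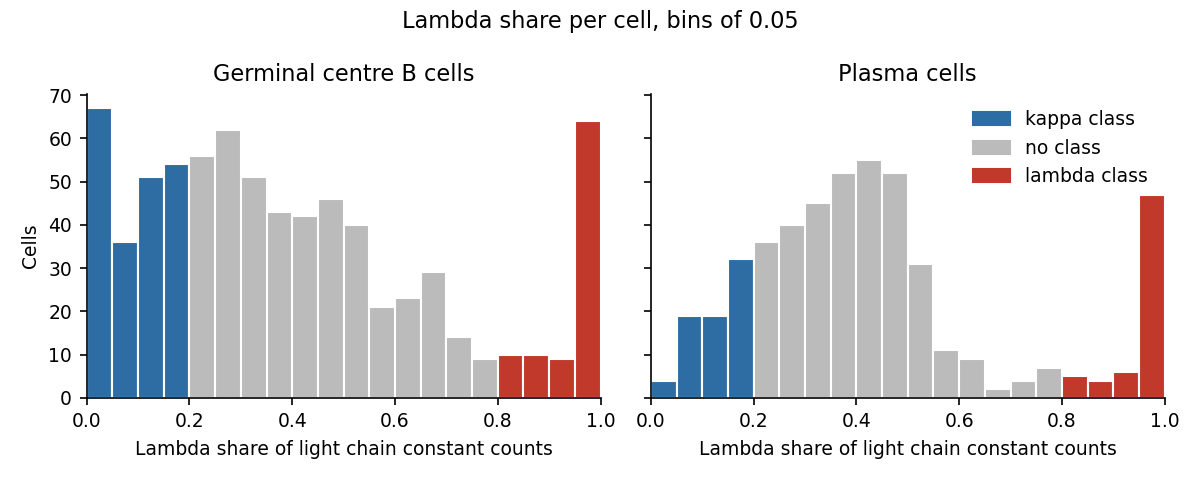
Number of cells (vertical axis) by the lambda share of light chain constant counts (horizontal axis, from 0 to 1 in steps of 0.05) for germinal centre B cells (left) and plasma cells (right), with kappa cells in blue, lambda cells in red and cells of no class in grey. The lambda class forms a peak near 1 in both panels; the kappa class is the low end of a broad range that reaches past 0.5, with a peak of 67 cells below 0.05 in the germinal centre only.

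The 4 genes are not equally easy to tell apart. The first 60 coding bases of each are shown because the classes rest on these genes. They come from GENCODE vM21 transcripts on GRCm38, which is mm10. Capitals mark bases that differ from Iglc1 in an alignment. Iglc1 lies at chr16:19061618-19062071, Iglc2 at chr16:19198396-19200351 and Iglc3 at chr16:19065230-19065681, all on the minus strand, and Igkc lies at chr6:70726435-70726966 on the plus strand.
Iglc1: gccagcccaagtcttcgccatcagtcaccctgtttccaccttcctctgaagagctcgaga
Iglc2: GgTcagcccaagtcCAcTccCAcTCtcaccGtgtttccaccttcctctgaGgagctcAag
Iglc3: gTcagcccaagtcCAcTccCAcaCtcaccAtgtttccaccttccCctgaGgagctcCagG
Igkc: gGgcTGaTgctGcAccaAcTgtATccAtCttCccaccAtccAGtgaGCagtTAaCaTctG
Over the coding sequence Iglc2 and Iglc3 were identical at 96.5% of 314 aligned bases, so their separate counts are uncertain and only the sum of the 3 lambda genes was used. Iglc1 matched Iglc2 at 75.6%, Iglc3 at 76.6% and Igkc at 62.4% of aligned bases.

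Light chain variable transcripts, which the rule did not use, checked the classes. Among germinal centre lambda cells 69 of 93 had at least a 0.8 share of Iglv1, Iglv2 and Iglv3 among variable transcripts, 7 lay between the limits, 4 held too few counts, and 13 had a share of at most 0.2 and so went against their class. Among germinal centre kappa cells 197 of 209 were kappa by variable transcripts and none was lambda. Plasma lambda cells were lambda in 46 of 62, with the other 16 between the limits. Plasma kappa cells were kappa in only 17 of 74, with 57 between the limits and none lambda. Their median was 552 counts of Iglv1 beside 1154 counts of all kappa variable genes. Of the 435 germinal centre B cells without a class, 362 were kappa and 10 were lambda by variable transcripts, so the kappa class is a subset of the cells with kappa transcripts, chosen for few lambda constant counts. Results that turn on this choice are given below with classes set by variable transcripts as well.

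IGHV1-72 was the leading heavy chain gene of lambda cells in the germinal centre and in plasma cells, and kappa cells seldom held it. A heavy chain was assembled in 47 of 93 germinal centre lambda cells, 110 of 209 germinal centre kappa cells, 61 of 62 plasma lambda cells and 73 of 74 plasma kappa cells. In the germinal centre IGHV1-72 was found in 24 of 47 lambda cells (51.1%, 95% exact interval 36.1 to 65.9) and 4 of 110 kappa cells (3.64%, 1 to 9.05). In plasma cells it was found in 40 of 61 lambda cells (65.6%, 52.3 to 77.3) and 2 of 73 kappa cells (2.74%, 0.334 to 9.55). Cells without a class held it in 23 of 269 and 20 of 341 cells. These intervals cover counting error only.

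The comparison within plates used plates with at least 3 lambda and 3 kappa cells that had a heavy chain. In 8 germinal centre plates the share of IGHV1-72 among lambda cells was 25% at its lowest, 50% in the median and 100% at its highest, against 0%, 0% and 20% among kappa cells. The lambda share was above the kappa share in 8 of 8 plates, and the lowest lambda plate lay above the highest kappa plate. The means were 52.3 ± 26.5% and 3.46 ± 7.20% (SD over plates, n = 8). In 6 plasma plates the lambda cells had 33.3%, 73.3% and 100% (lowest, median and highest) and the kappa cells 0%, 0% and 16.7%, again without overlap and higher in 6 of 6 plates. The means were 70 ± 28.8% and 2.78 ± 6.80% (SD, n = 6). A two-sided exact permutation test that changes the sign of within-plate differences gave p = 0.00781 (n = 8) and p = 0.0313 (n = 6), each the smallest that many plates allow. Adjusted by Benjamini-Hochberg over the 36 values tested per plate, these permutation tests had adjusted p = 0.141 and 0.161, and none of the 36 passed 0.05. With plates of at least 1 cell per class, a setting added after seeing the data, the share was 54.0% against 3.10% over 17 germinal centre plates and 68.1% against 1.63% over 19 plasma plates. The adjusted permutation p was then 0.00288 and 0.00216, with lambda higher in 14 and 18 of those plates and no plate lower. With classes set by variable transcripts the differences were 59.1 and 66.0 percentage points, with adjusted permutation p = 0.000628 and 0.000432. Clones were spread over plates: 1 IGHV1-72 clone had 8 lambda cells on 8 plates, and another had 8 on 7. The plates are thus not independent draws of clones, here and in the mutation tests below. These tests did not take clones into account.

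**Figure D2:**
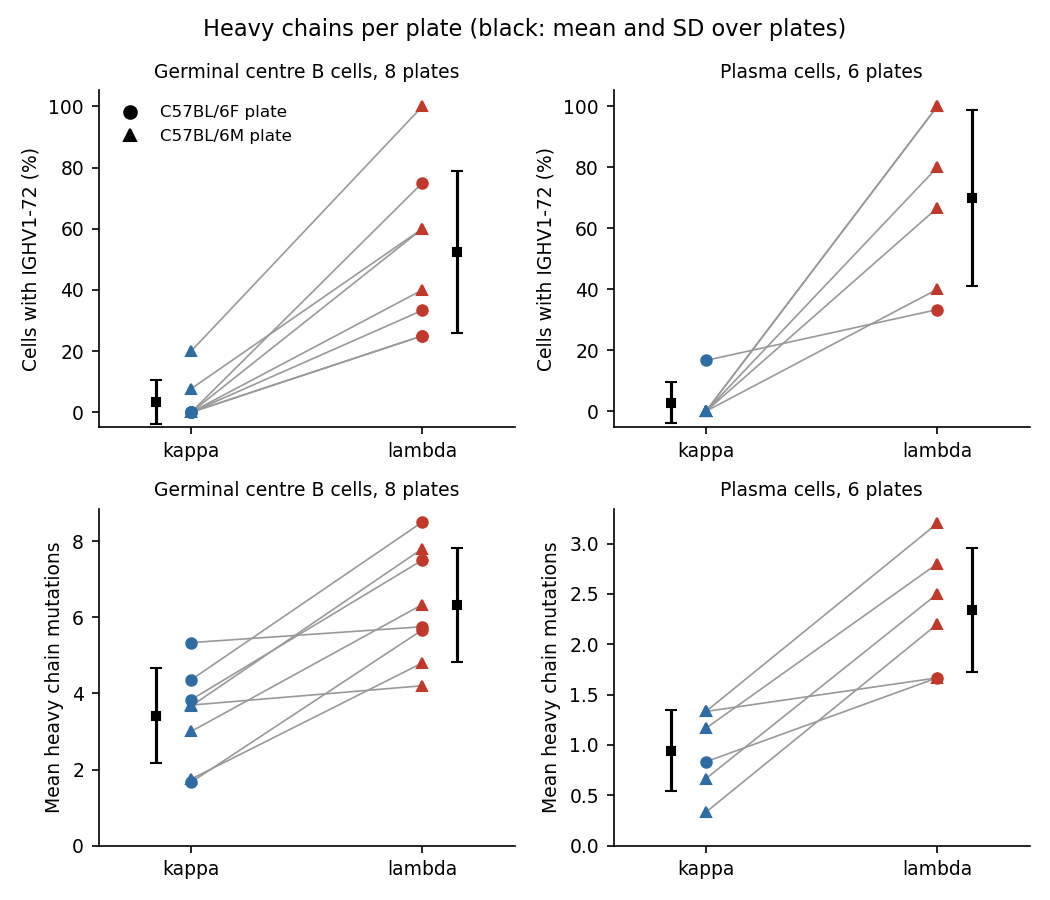
Share of cells with IGHV1-72 in percent (top) and mean heavy chain mutations per cell (bottom) for kappa (blue) and lambda (red) cells of the same plate, joined by a line, in germinal centre B cells (left) and plasma cells (right). Circles are C57BL/6F plates, triangles C57BL/6M plates, and black squares with bars the mean and SD over plates; every line rises from kappa to lambda, in 8 of 8 and 6 of 6 plates.

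Ighv1-72 lies at chr12:115757984-115758461 on the minus strand of GRCm38. Bases 70 to 129 of the heavy chain variable segment, counted from 1 at its first base, are shown because they hold codon 33, the codon named above. Capitals mark codon 33, bases 97 to 99. The first line is the germline given in the authors' table of cells. The second is the stretch found most often in lambda cells with leucine there.
IGHV1-72 germline: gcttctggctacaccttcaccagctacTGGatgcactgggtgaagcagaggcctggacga
IGHV1-72 with W33L: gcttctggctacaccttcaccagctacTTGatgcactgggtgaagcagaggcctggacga
Leucine at codon 33 (W33L) was present in 14 of 24 germinal centre lambda cells with IGHV1-72 (58.3%, 95% exact interval 36.6 to 77.9), over 9 plates and 8 clones. It was present in 27 of 40 plasma lambda cells with IGHV1-72 (67.5%, 50.9 to 81.4), over 16 plates and 10 clones. None of the 4 germinal centre and 2 plasma kappa cells with IGHV1-72 had it, too few cells to set a useful limit. The base change was G98T alone in 9 germinal centre and 23 plasma cells, and G98T with G99A in 5 and 4. Phenylalanine (W33F) and arginine (W33R) stood there in 1 plasma lambda cell each. The second line above was read exactly in 18 of the 41 W33L lambda cells, and the germline stretch in 8 of the 64 lambda cells with IGHV1-72. In C57BL/6F 6 of 10 germinal centre and 7 of 9 plasma cells had W33L, and in C57BL/6M 8 of 14 and 20 of 31. Germinal centre lambda cells with W33L had 6.86 ± 2.68 heavy chain mutations and those without it 6.00 ± 3.46 (SD over cells, 14 and 10 cells). Plasma lambda cells had 2.52 ± 1.67 and 2.92 ± 2.18 (27 and 13 cells).

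The mean number of heavy chain mutations was higher in lambda than in kappa cells in every plate compared, although neither test passed after adjustment. In 8 germinal centre plates the mean per lambda cell was 4.20, 6.04 and 8.50 (lowest, median and highest plate) and per kappa cell 1.67, 3.68 and 5.33. The ranges overlapped, but lambda was higher in 8 of 8 plates, with means of 6.32 ± 1.51 and 3.41 ± 1.25 (SD, n = 8, exact permutation p = 0.00781, adjusted p = 0.141). In 6 plasma plates the values were 1.67, 2.35 and 3.2 for lambda and 0.333, 1 and 1.33 for kappa. They did not overlap, with means of 2.34 ± 0.617 and 0.944 ± 0.404 (SD, n = 6, exact permutation p = 0.0313, adjusted p = 0.161). Over cells, 42 of 73 plasma kappa cells (57.5%) had an unmutated heavy chain, against 5 of 61 plasma lambda cells (8.20%). In the germinal centre 15 of 110 kappa and 3 of 47 lambda cells were unmutated. With classes set by variable transcripts the differences were 2.30 and 1.54 mutations and passed the permutation test (adjusted p = 0.00416 over 16 plates and 0.00878 over 18). The plasma classes set in that way also differed in the plasma cell gate, by 57.4 points, and its part in the plasma values was not tested. Without IGHV1-72 cells the difference was 1.37 ± 2.70 mutations over 12 germinal centre plates and 1.42 ± 2.58 over 12 plasma plates (SD, plates of at least 1 cell per class). Each was higher in 8 plates, with adjusted permutation p = 0.359 and 0.358.

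Light chain mutations had no such pattern over plates. The locus of the assembled light chain was not checked, so some chains may not be of the locus of their cell's class. In 8 germinal centre plates the light chains of lambda cells had a mean of 2.16 ± 0.870 mutated bases and those of kappa cells 2.71 ± 0.487 (SD, n = 8, exact permutation p = 0.102, adjusted p = 0.332). In 7 plasma plates the means were 0.686 ± 0.388 and 0.508 ± 0.475 (SD, n = 7, exact permutation p = 0.625, adjusted p = 0.864). The 2 loci have different germline segments, so equal numbers need not mean equal rates. With 1 cell per class and plate the germinal centre difference was -0.968 mutations and passed the permutation test (adjusted p = 0.0190).

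Beside IGHV1-72 a few other heavy chain genes were found in several lambda cells, in part within 1 clone. In all, 13 V genes were seen in 47 germinal centre lambda cells, led after IGHV1-72 by IGHV10-3 and IGHV14-2 with 5 cells each. Those cells came from 1 and 2 clones. The 110 germinal centre kappa cells used 41 V genes, led by IGHV1-22 with 15 cells, IGHV1-64 with 11 and IGHV1-53 with 8. These came from 7, 11 and 8 clones. In plasma cells 61 lambda cells used 9 V genes, with IGHV10-3 (1 clone) and IGHV14-3 (4 clones) at 6 cells each, and 73 kappa cells used 35. IGHV1-64 led those with 6 cells of 5 clones. The numbers of cells differ between the classes, so the counts of V genes are not per cell.

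The junction, where V, D and J segments join, is the part of the heavy chain that differs most between clones. The 3 junctions found in most lambda cells and in most kappa cells are shown, each from the conserved cysteine to the conserved tryptophan codon, with the fourth codon in capitals.
lambda, IGHV1-72 and IGHJ4: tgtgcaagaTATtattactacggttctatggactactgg
lambda, IGHV1-72 and IGHJ2: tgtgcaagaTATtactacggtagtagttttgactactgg
lambda, IGHV1-72 and IGHJ2 (longer): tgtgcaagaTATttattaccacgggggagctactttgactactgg
kappa, IGHV6-3 and IGHJ4: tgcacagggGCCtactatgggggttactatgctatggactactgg
kappa, IGHV2-2 and IGHJ1: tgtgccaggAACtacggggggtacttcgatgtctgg
kappa, IGHV1-15 and IGHJ4: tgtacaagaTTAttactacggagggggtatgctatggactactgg
The first lambda junction was read in 8 cells of 7 plates, all C57BL/6M, 2 of them germinal centre and 6 plasma cells. The second was read in 5 plasma cells, 1 of C57BL/6F and 4 of C57BL/6M, and the third in 4 cells of C57BL/6F. The kappa junctions were read in 4, 3 and 2 cells, the last being 1 of 10 kappa junctions with 2 cells. In all, 108 lambda cells held 79 distinct junctions and 183 kappa cells held 168. The second lambda junction is thus the same 39 bases in cells of both sampleIDs. Of 26 junctions read in several cells, 2 were shared in that way and 1 was read in both light chain classes.

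The fourth junction codon encoded tyrosine in most lambda cells and in few kappa cells, a pattern chosen after the junctions were seen and given as a description. It did so in 34 of 47 germinal centre lambda cells (72.3%) and 3 of 110 kappa cells (2.73%), and in 50 of 61 plasma lambda cells (82.0%) and 11 of 73 kappa cells (15.1%). Among cells with another V gene than IGHV1-72 the germinal centre counts were 15 of 23 lambda cells (65.2%) and 3 of 106 kappa cells (2.83%). The plasma counts were 13 of 21 (61.9%) and 11 of 71 (15.5%). Counted once per clone, tyrosine stood there in 19 of 31 germinal centre lambda clones and 3 of 91 kappa clones, and in 20 of 28 and 7 of 62 plasma clones. Without IGHV1-72 it stood there in 8 of 16 germinal centre lambda clones (50%) and 3 of 88 kappa clones. In plasma cells these clone counts were 6 of 11 (54.5%) and 7 of 61.

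The authors grouped heavy chains into clones. Of cells with a heavy chain, 51.1% of germinal centre lambda cells lay in clones of at least 2 cells of their own class and kind, against 28.2% of germinal centre kappa cells, 70.5% of plasma lambda cells and 26.0% of plasma kappa cells. Cells of 1 clone are not independent, so no test is given. Of 42 clones with at least 2 classified cells, 17 were lambda throughout, 24 were kappa throughout and 1, with IGHV11-2, held both. Germinal centre and plasma cells met in 9 of the lambda and 10 of the kappa clones. The largest was an IGHV10-3 clone of 11 cells over 8 plates and both sampleIDs, all lambda, with a mean of 4.27 mutations. The largest kappa clone was an IGHV1-22 clone of 8 germinal centre cells with a mean of 7.88 mutations. Cells of 8 clones came from both sampleIDs, 4 lambda and 4 kappa. The sampleID of a plate follows the authors' sex column, so these 8 clones would span animals of different sex. A clone here, and in the clone counts above, is a group of heavy chains that need not descend from 1 B cell. Whether it does was not tested.

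The share of IgM, the 1 isotype compared over plates, did not pass the test with classes set by constant genes. Over cells with an isotype, IgM made up 15 of 81 germinal centre lambda cells (18.5%) and 62 of 185 kappa cells (33.5%), and 1 of 62 plasma lambda cells (1.61%) and 15 of 74 plasma kappa cells (20.3%). In 10 germinal centre plates the share was 0%, 17.1% and 33.3% in lambda cells and 11.8%, 32.4% and 85.7% in kappa cells (lowest, median and highest). The ranges overlapped, with lambda lower in 6 plates and higher in 3 (permutation p = 0.0781, adjusted p = 0.313). In 7 plasma plates it was 0% in all lambda groups and from 0% to 50% in kappa groups, lower in 4 plates (exact permutation p = 0.125, n = 7, adjusted p = 0.375). With classes set by variable transcripts the plasma difference passed, with lambda lower, and its size is given at the end. Those plasma classes also differed in the plasma cell gate, whose part was not tested. IgG1, the most frequent isotype in all 4 groups, made up 42.0% and 43.2% in the germinal centre and 41.9% and 47.3% in plasma cells. IgG2b made up 21.0% and 12.4% in the germinal centre and 32.3% and 10.8% in plasma cells, lambda before kappa in each pair.

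**Figure D3:**
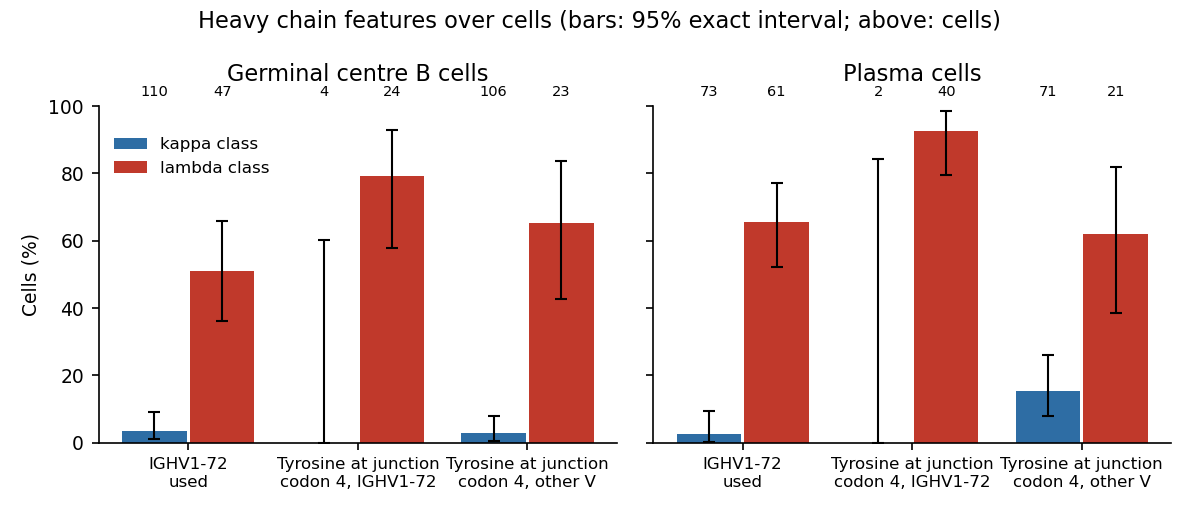
Share of cells in percent that used IGHV1-72, and share with tyrosine as the fourth junction codon among IGHV1-72 chains and among other V genes, for kappa (blue) and lambda (red) cells. Bars are shares over all plates with 95% exact intervals, and the number of cells stands above each; the lambda bars are at 51.1% and 65.6% for IGHV1-72 and above 60% for tyrosine, and the kappa groups with other V genes are at 2.83% and 15.5%.

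The dark zone share of germinal centre cells was higher in the lambda than in the kappa class in most plates, without passing after adjustment, and not when classes came from variable transcripts. In 10 plates the dark zone share was 40%, 66.7% and 75% in lambda cells and 11.1%, 44.4% and 61.1% in kappa cells (lowest, median and highest). It was higher in lambda in 9 plates and lower in plate 11, and the ranges overlapped. The means were 65.1 ± 10.3% and 43.8 ± 14.1% (SD, 10 plates, permutation p = 0.0137, adjusted p = 0.141). With variable transcripts it was 58.9 ± 28.7% and 60.3 ± 12.1%, a difference of -1.39 points over 19 plates (adjusted permutation p = 0.891). The dark zone share of germinal centre B cells without a class was 60.5% over cells. Cycling cells, those in S or G2M phase by the authors' call, made up 57.4 ± 10.6% of lambda and 67.1 ± 12% of kappa cells (SD, 10 plates, permutation p = 0.0938, adjusted p = 0.332). In plasma cells they made up 10.5 ± 18% and 23.8 ± 23.3% (SD, n = 7, exact permutation p = 0.375, adjusted p = 0.643). This plasma difference too passed with classes set by variable transcripts, with lambda lower and the same limit on the gate. The plasma cell gate held the same mean share of both plasma classes, 92.9 ± 13.1% (SD, n = 7, exact permutation p = 1).

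Surface proteins recorded by index sorting had no channel that passed in either kind of cell. Their values are inverse hyperbolic sines of fluorescence. GL7, a germinal centre surface marker, was 2.27 ± 0.254 in germinal centre lambda and 1.95 ± 0.238 in kappa cells (SD, 10 plates, higher in 9, permutation p = 0.0156, adjusted p = 0.141). CXCR4, the receptor that draws cells to the dark zone, was 2.62 ± 0.358 and 2.32 ± 0.269, higher in 8 of 10 plates (adjusted permutation p = 0.290). CD86, a light zone costimulatory protein, was 2.21 ± 0.333 and 2.42 ± 0.306, lower in 8 of 10 (adjusted permutation p = 0.427). In plasma cells PSGL1, a selectin ligand, was 2.5 ± 0.248 in lambda and 2.19 ± 0.173 in kappa cells (SD, n = 7, higher in 6, exact permutation p = 0.0313, adjusted p = 0.161). With 1 cell per class and plate that difference was -0.0889 over 19 plates, so its direction depended on which plates entered. CD138, the plasma cell syndecan, was 4.09 ± 0.329 and 3.89 ± 0.282 (SD, n = 7, exact permutation p = 0.297, adjusted p = 0.581). The number of genes per cell differed by less than the spread between plates. Germinal centre lambda cells had a plate mean of 1051 ± 495 genes and kappa cells 1065 ± 537 (SD, 10 plates), and plasma cells 1236 ± 362 and 1056 ± 272 (SD, 7 plates).

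Lambda cells made up more of the classified plasma cells than of the classified germinal centre B cells over 12 plates, but not in the 3 plates with at least 10 of each kind. These shares leave out cells between the limits, which were 344 of 480 plasma cells and 435 of 778 germinal centre B cells. Of all cells, 62 of 480 plasma cells and 93 of 778 germinal centre B cells were lambda, and 74 and 209 were kappa. The share counts the class labels themselves. Its tests thus cannot tell a difference in light chain use from a difference in how the limits cut each kind of cell. The part of cells without a class in the difference was not tested. In 12 plates with at least 5 classified cells of each kind the lambda share ran from 11.1% to 87.5% in plasma cells and from 0% to 47.1% in germinal centre B cells. Plasma cells had the higher share in 9 plates and the lower in 3, with means of 50.8 ± 26.6% and 25.7 ± 14.4%. The difference was 25.1 ± 28.9 points (SD, 12 plates, permutation p = 0.0142, adjusted p = 0.0242 over 4 comparisons of lambda shares). Its direction turned in the 3 plates with at least 10 classified cells of each kind, at -6.16 ± 12.3 points, higher in 1 of them. In the 9 C57BL/6M plates it was 34.6 ± 26.1 points and in the 3 C57BL/6F plates -3.32 ± 16.3. The 2 sampleIDs differed in it by 38 points (exact permutation p = 0.0364, adjusted p = 0.0727 over both within-plate comparisons). Among plasma cells alone the 9 C57BL/6M plates had 25%, 62.5% and 87.5% lambda (lowest, median and highest). The 3 C57BL/6F plates had 11.1%, 12.5% and 33.3%. The ranges overlapped only between 25% and 33.3%, with means of 61.5 ± 20.6% and 19 ± 12.4% (exact permutation p = 0.0182, adjusted p = 0.0242). Among germinal centre B cells the shares were 28.1 ± 15.9% in 10 C57BL/6M plates and 31.9 ± 12.1% in 9 C57BL/6F plates (permutation p = 0.573, adjusted p = 0.573). Without IGHV1-72 cells the plasma difference between sampleIDs was 13.25 points over 8 plates (exact permutation p = 0.429). Plasma minus germinal centre was then 0.774 points over 5 plates. This setting also left out cells without an assembled heavy chain, which 50.5% of germinal centre and 98.4% of plasma lambda cells had. IGHV1-72 was far more frequent in lambda than in kappa cells, so leaving it out lowers the lambda share by itself.

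**Figure D4:**
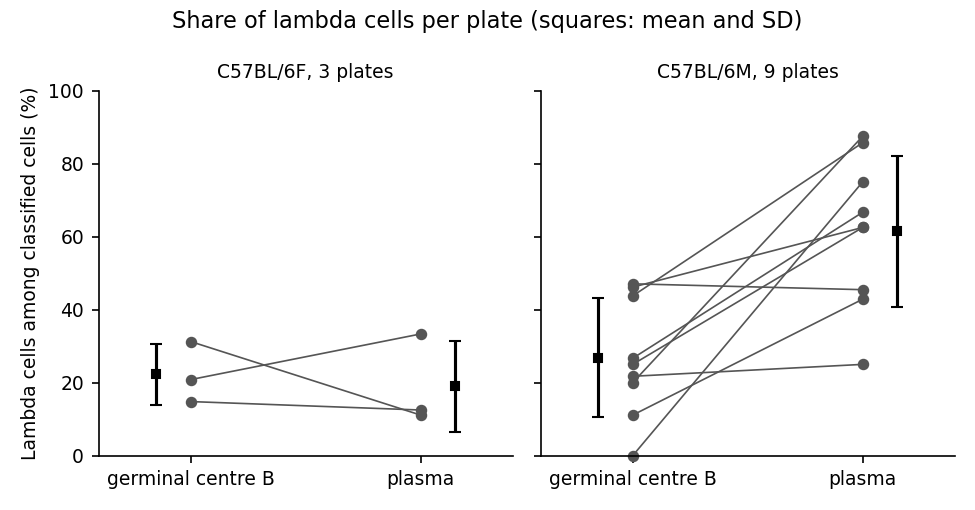
Lambda cells in percent of classified cells (vertical axis, 0 to 100) in germinal centre B cells and plasma cells of the same plate, joined by a line, for 3 C57BL/6F plates (left) and 9 C57BL/6M plates (right). Squares with bars are the mean and SD over plates; the C57BL/6M mean goes from 26.8% to 61.5% and the C57BL/6F mean from 22.3% to 19%.

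Seen from the zones, lambda cells made up 42.8 ± 21.7% of classified dark zone cells and 25.6 ± 7.41% of classified light zone cells over 13 plates. The share was higher in the dark zone in 10 plates, by 17.2 ± 21.9 points (SD, permutation p = 0.0139, adjusted p = 0.0242). With a minimum of 50 light chain counts it was 13.2 points over 9 plates (exact permutation p = 0.203, n = 9). With variable transcripts it was -3.42 points over 20 plates (permutation p = 0.761). The dark zone result thus rests on the constant region rule, under which 263 of 452 dark zone and 136 of 278 light zone cells had no class. Plasma minus germinal centre was 25.9 points with variable transcripts over 19 plates, higher in 17 (permutation p = 0.000120). That setting classified 144 plasma cells and 670 germinal centre B cells, a smaller part of the plasma cells. The part of cells without a class in this difference was not tested either.

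Outside immunoglobulin genes, 1 gene passed the test in each kind of cell. For each plate the counts of a class were pooled, and the 2 pools were compared by edgeR's quasi-likelihood test with the plate as a block. It ran over 10 germinal centre plates with at least 5 lambda and 5 kappa cells, and over 7 plasma plates with at least 3 of each. In the germinal centre 1 of 3046 genes passed at a Benjamini-Hochberg adjusted p under 0.05 (0.0328%), and in plasma cells 1 of 1970 (0.0508%). At an unadjusted p under 0.05 there were 95 and 37 genes. Both calls were RP23-435I4.11, lower in lambda cells. DESeq2 called 111 and 67 genes on the same pools, and limma-voom 9 and 1, so the number of calls depended on the tool.

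RP23-435I4.11 is a clone-based gene name that the reference tables used here do not hold, and its position and function are not known here. In germinal centre pools it had 0, 0 and 180.5 CPM in lambda cells and 363, 598 and 1402 CPM in kappa cells (lowest, median and highest plate). The groups did not overlap and 7 of 10 lambda pools were at 0. The fitted difference was -8.63 ± 1.07 on the log2 scale (edgeR adjusted p = 0.000399), a size that depends on how pools at 0 are handled. In plasma pools it had 0, 9.18 and 2066 CPM in lambda cells and 1326, 2248 and 3980 CPM in kappa cells. It was lower in 6 of 7 plates, with a difference of -7.77 ± 1.13 (edgeR adjusted p = 0.00381). The exception was plate 11, at 2066 CPM in lambda and 1980 in kappa cells. Without plate 17 the plasma call was lost (edgeR adjusted p = 0.0598), and without a plate block no plasma gene was called. Over cells, 5 of 93 germinal centre lambda cells (5.38%) and 99 of 209 kappa cells (47.4%) held a count of it, and in plasma cells 14 of 62 (22.6%) and 57 of 74 (77.0%). Cells without a class stood between, at 39.3% and 64.2%. Median depth outside immunoglobulin genes was 40167 and 47241 counts per germinal centre cell and 64819 and 44087 per plasma cell, so the plasma lambda cells were the deeper ones. It kept its direction and its call with classes set by variable transcripts, at -6.04 in the germinal centre (edgeR adjusted p = 0.0246) and -6.46 in plasma cells (0.00225). In the 5 C57BL/6F plates alone the germinal centre call was lost (-6.94, edgeR adjusted p = 0.998). Immunoglobulin genes were left out by name, so a gene of a light chain locus listed under a clone name would have stayed in. Whether this gene shares reads with such a locus was not tested.

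**Figure D5:**
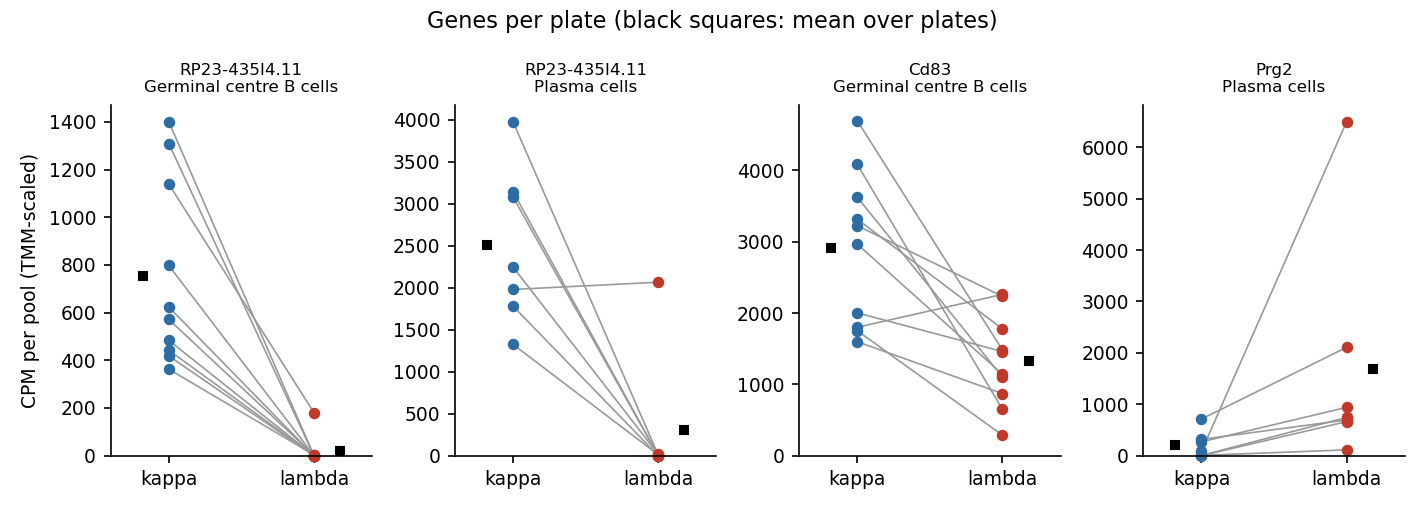
CPM per pool (vertical axes, from 0, each panel on its own scale) for kappa (blue) and lambda (red) pools of the same plate, joined by a line, for RP23-435I4.11 in 10 germinal centre and 7 plasma plates, Cd83 in the germinal centre and Prg2 in plasma cells; black squares are means. RP23-435I4.11 is at or near 0 in all lambda pools except germinal centre plate 2 and plasma plate 11; Cd83 and Prg2 did not pass the test.

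No other germinal centre gene passed. Next by p came Cd83, an activation marker of light zone B cells. It had 287, 1301 and 2261 CPM in lambda pools and 1598, 3096 and 4698 in kappa pools, lower in 9 of 10 plates, and the groups overlapped. Its difference was -1.24 ± 0.25 on the log2 scale (edgeR adjusted p = 0.135). It was -0.71 in dark zone cells alone (10 plates) and -1.20 in light zone cells taken with the light-to-dark zone transition (12 plates). Neither passed in edgeR (adjusted p = 0.9998 and 0.235). It passed with DESeq2 (adjusted p = 0.000526), limma-voom (0.0281), no filter on low counts in edgeR (2.64e-07), a minimum of 50 light chain counts in edgeR (0.0241) and without plate 1 in edgeR (0.0173). The dark zone shares given above moved with it, and their part in it was not tested. Of the rest, the mitochondrial ribosome gene Mrps27, the cohesion factor Cdca5, the RNA-binding hydratase Auh and the spindle motor Kif11 had differences from -8.18 to -6.19. Between 6 and 9 of the 10 lambda pools were at 0 for them, where a fitted fold is no measure of size. The chromatin protein Hmgb1 (-0.59 ± 0.17), the PCNA-associated factor gene 2810417H13Rik (-0.98 ± 0.29), the MHC class II chain H2-Aa (-0.29 ± 0.09) and the histone gene H3f3b (-0.29 ± 0.09) were measured in all pools. Their edgeR adjusted p was 0.995 each.

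None of the genes followed for germinal centre identity or receptor signalling passed. Cd79a and Cd79b, the signalling chains of the B cell receptor, differed by 0.29 ± 0.11 (higher in 9 of 10 plates) and 0.26 ± 0.13, with edgeR adjusted p = 0.995 for both. Vpreb3, a gene that accompanies light chain assembly, differed by -0.24 ± 0.35. Prdm1, Irf4, Sdc1, Bcl6, Cxcr4 and Myc were too low in these pools to be tested.

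Described by counts, no gene list held a call in the germinal centre. Over all 3046 genes tested the median difference was -0.44, with 893 genes above 0 and 2153 below. It was -0.30 with DESeq2 size factors and -0.12 with equal cell numbers in both classes, so lists are to be read against it. The light zone and activation list had 3 of 13 tested genes above 0 and a median of -1.23. The G2 and M phase list had 3 of 25 above 0 and a median of -1.32, and the S phase list 3 of 24 and -0.86. The 2 most highly expressed members of the first were nearer 0, Hmgb2 at -0.16 ± 0.26 and Birc5 at -0.40 ± 0.59. Those of the second were Slbp at -0.63 ± 0.35 and Rrm2 at -1.32 ± 0.57. The part of genes with pools at 0 in these medians was not tested. The MHC class II list had 2 of 12 above 0 and a median of -0.25. The germinal centre identity list had 9 of 14 above 0 and a median of 0.18, and the dark zone list 5 of 9 and 0.04. The B cell receptor signalling list had 8 of 22 above 0 and a median of -0.37, close to that of all genes. The surrogate light chain and light chain editing list had 4 of 5 above 0 and a median of 0.15.

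None of the genes followed for the secretory programme passed in plasma cells. Jchain, which joins IgM and IgA into polymers, had 18079 ± 4479 CPM in lambda and 19630 ± 5808 in kappa pools, a difference of -0.11 ± 0.19. Xbp1, the regulator of the secretory apparatus, differed by -0.07 ± 0.22, and the ER chaperone Hspa5 by -0.09 ± 0.22. The plasma cell identity list had 9 of 18 tested genes above 0 and a median of 0.08, and the ER folding and secretion list 20 of 34 and 0.04, against -0.06 for all 1970 genes. Sdc1 differed by -0.11 ± 0.79, Irf4 by -0.51 ± 2.13 and Prdm1 by -1.05 ± 3.35, errors too wide for a statement about these regulators. The G2 and M phase list had 0 of 5 above 0 and a median of -3.99, but pools at 0 set that value: Hmgb2 had 0, 3.90 and 677 CPM in lambda and 0, 427 and 1446 in kappa pools. None of these passed.

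Next by p in plasma cells came Prg2, which encodes a granule protein best known from eosinophils. It had 112.5, 744.5 and 6499 CPM in lambda pools and 0, 83.9 and 712 in kappa pools, higher in 7 of 7 plates although the ranges overlapped. Its difference was 3.97 ± 0.94 on the log2 scale (edgeR adjusted p = 0.485). It passed with DESeq2 (adjusted p = 0.00212) and with no filter on low counts in edgeR (0.00425). With classes set by variable transcripts it was 0.51 over 6 plates (edgeR adjusted p = 0.732). Slpi, a secreted protease inhibitor, was high in all pools, with 11083, 16832 and 19074 CPM in lambda and 5771, 8282 and 18891 in kappa pools, a difference of 0.62 ± 0.22 (edgeR adjusted p = 1). The other genes of smallest p, Rpl7a, Mtch2, Mrps16, Acadm, Vcpkmt, Atg3 and Dus1l, each had between 3 and 5 of 7 pools of 1 class at 0, and edgeR adjusted p = 1.

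Direct tests found no gene whose difference between lambda and kappa itself differed. Between plasma cells and germinal centre B cells 0 of 5082 genes passed in edgeR (217 at an unadjusted p under 0.05, and 0 with DESeq2 size factors). Between C57BL/6M and C57BL/6F 0 of 3046 germinal centre genes passed (40 unadjusted) and 0 of 1970 plasma genes (83 unadjusted), the latter with 1 plate of C57BL/6F.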

How the data were processed

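Counts were used as deposited, as whole numbers for 1367 cells by 16047 genes. The submitters' processing notes name STAR 2.5.3a, HTSeq 0.9.1 and the build mm10, and cDNA was preamplified for 22 cycles per the labels' protocols. How cells were filtered is not given in the sources used here. The authors' deposited table of cells gives the plate, gate, state, phase, heavy chain genes, clone, numbers of mutated bases and index-sort fluorescence. Its spike-in share is a fraction of counts in the deposited values. The labels do not say which plate is which GEO sample, and the sampleID of a plate was taken from the column Sexe of that table. Single cells were sorted per well, and no doublet caller was run.

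The members, gene lists and tests were chosen with earlier results of these data known. Counts were summed per plate and class after leaving out 303 immunoglobulin genes. edgeR 4.0.16 in R 4.3.3 (TMM, filterByExpr by class, quasi-likelihood F-test, plate as block) was tested on simulated data first. It recovered 1% of simulated 2-fold and 9% of 4-fold changes in the germinal centre setting, and 4% and 10% in the plasma setting. Of its 10 and 15 calls there, 0% and 6.67% were false. Most changes of that size would thus go undetected. The same plate gave both pools, so the block is the plate itself. Alternatives used DESeq2 1.42.0 and limma 3.58.1. Values per plate were compared by two-sided sign-change permutation tests (scipy 1.17.1, exact below 10 plates, otherwise up to 100000 resamples), adjusted by Benjamini-Hochberg. The intended minimum of 5 cells per plate and class left 1 plasma plate and 2 germinal centre plates with heavy chains. A minimum of 3 cells is therefore used there, a choice made after seeing the numbers of cells per plate. Named genes are every called gene, the 10 of smallest p, a fixed panel, and the 2 most highly expressed tested members of each list. Shares over cells have exact Clopper-Pearson intervals at 95%. Normalised CPM were computed here. The values of 1 gene and 1 fluorescence channel are not reported here.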

Additional observations from a re-analysis of the deposited data

Results flagged for a closer look

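In 86 groups of 4 to 10 plates the highest or lowest plate was tested for its gap to the rest (Dixon's test), and 10 stood apart. Chance gives about 1 in 20 groups where values are normally distributed. Groups with a median of 0, as for the IGHV1-72 shares of kappa cells, are not. The number of flags therefore cannot be set against that rate. Among germinal centre kappa cells these were the IGHV1-72 share of plate 12 (20%), the IgM share of plate 15 (85.7%), the counts per cell of plate 9 (103947) and B220 fluorescence of plate 1 (1.96). Among germinal centre lambda cells they were the dark zone share of plate 11 (40%) and RP23-435I4.11 in plate 2 (180.5 CPM, with the median at 0). Among plasma kappa cells it was the IGHV1-72 share of plate 3 (16.7%). Among plasma lambda cells they were GL7 fluorescence of plate 11 (1.12), Prg2 in plate 3 (6499 CPM, against a median of 744.5) and RP23-435I4.11 in plate 11 (2066 CPM, against a median of 9.18). Plate 11 stood apart in 3 of the 10 groups.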

How the results depend on the processing

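Of 1205 recomputed values 1084 were labelled the same. For tested values this meant the same side of the threshold. A change of sign was allowed where neither value passed and the shift was within the SE or SD. For values without a test it meant a shift below the SD, and for numbers of called genes a similar number. Germinal centre genes per cell, for example, ran from -59.1 to 35.6 with 1 plate left out and counted as the same. Germinal centre gene calls (1) were 111 with DESeq2, 9 with limma-voom, 6 with no filter, 4 by variable transcripts and 2 with 50 light chain counts or with limits of 0.9 and 0.1 (2 plates). Under the limits of 0.9 and 0.1 RP23-435I4.11 was at -4.35 and did not pass, so both calls were other genes. They were 0 in C57BL/6F, in light zone cells (2 cells per class) and without IGHV1-72 cells. Dark zone cells gave 0 calls over 2 plates with 5 cells per class and 1 over 10 plates with 3. Plasma calls (1) were 67 with DESeq2, 3 with no filter, 27 by variable transcripts, 4 without IGHV1-72 cells (4 plates), and 0 with no replicate block (plate); the germinal centre count was 1 without the block. Leaving out 1 plate gave 1 to 2 germinal centre calls and 0 to 1 plasma calls.

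Dark zone cells gave log2 differences of 0.33 (Cdca5), 4.22 (2810417H13Rik) and 0.13 (H2-Aa) over 2 plates, and of -0.45 (2810417H13Rik) and -0.23 (H2-Aa), the direction in all cells, over 10. Limits of 0.9 and 0.1 gave 0.26 (2810417H13Rik) over 2 plates and -0.52 over 14. By variable transcripts with 1 cell per class, germinal centre differences were 59.1 points (IGHV1-72), 2.30 (heavy chain mutations), -1.39 points (dark zone) and -7568 counts per cell. Plasma differences were 66.0 points (IGHV1-72), 1.54 mutations, -37.4 points (IgM), -44.3 points (cycling), 57.4 points (plasma gate), -606 genes and -36965 counts per cell, LiveDead 0.574 and B220 -0.668, and 11 fluorescence channels passed. With 1 cell per class IGHV1-72 differed by 50.9 and 66.5 points, germinal centre light chain mutations by -0.968, plasma PSGL1 by -0.0889 and CD138 by -0.295. Without IGHV1-72 cells GL7 was -0.252 in the germinal centre and PSGL1 -0.180 in plasma cells (1 cell), and 1 plasma plate gave 2.33 mutations, -578 genes and -33159 counts. Limits of 0.9 and 0.1 gave 0.366 light chain mutations and 12.5 points of cycling cells in the germinal centre, and 33.3 points (IGHV1-72) and 0.667 mutations in plasma cells. The 1 C57BL/6F plasma plate gave 16.7 points (IGHV1-72), -488 genes and -12954 counts. The 1 plasma plate with 5 cells gave -1 light chain mutation, -50 points of IgM and 16.7 points of plasma gate.

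The lambda share of plasma minus germinal centre was 31.1 points with limits of 0.9 and 0.1, -6.16 with 10 cells and -3.32 in C57BL/6F. Dark minus light zone was 13.2 with 50 counts, -25 without IGHV1-72 cells (1 plate) and -3.42 by variable transcripts. C57BL/6M minus C57BL/6F was -9.42 in the germinal centre by variable transcripts and 13.25 in plasma cells without IGHV1-72 cells. The cause of these changes was not tested. Several settings left too few plates for a test. Settings without IGHV1-72 cells also left out all cells lacking an assembled heavy chain. Classes by assembled light chain locus and gene fits within IGHV1-72 cells were not run, nor were plasma gene fits with stricter limits, 10 cells or C57BL/6F alone, nor leave-one-out fits of the difference between plasma and germinal centre effects. Pools held 3 to 19 cells, and differences between them, large ones included, can have gone undetected.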

Other observations

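Cells of no class held IGHV1-72 in 8.55% of germinal centre and 5.87% of plasma cells with a heavy chain. Of these IGHV1-72 cells 6 of 23 and 6 of 20 had leucine at codon 33. The heavy chains of all cells of no class had a mean of 3.84 mutations in the germinal centre and 1.22 in plasma cells, where 216 of 341 cells (63.3%) were unmutated. IgG3 was held by 8 of 81 germinal centre lambda cells (9.88%) and 1 of 185 germinal centre kappa cells (0.541%). It was held by 31 of 344 plasma cells of no class (9.01%), 1 of 62 plasma lambda cells and none of the 74 plasma kappa cells, which allows a share of up to 4.05% (3 counts, counting error only). The joining segment IGHJ2 was used by 24 of 40 plasma lambda cells with IGHV1-72 (60%) and by 10 of 24 in the germinal centre (41.7%). With other V genes it was used by 3 of 21 and 6 of 23 lambda cells (14.3% and 26.1%), and by 13 of 71 and 31 of 106 kappa cells (18.3% and 29.2%). These are counts over cells that share plates and clones, and no test was made.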
